A study of Homo sapiens with 45 samples.

Results

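SAOS2 is a human osteosarcoma cell line used as a model of bone-forming tumour cells. Its transcriptome was set against that of the 5 other osteosarcoma lines of the series, G292, HOS-MNNG, KHOS, MG63 and U2OS. HOS-MNNG and KHOS are transformed derivatives of the same parental line, HOS. Each line had 3 poly(A) RNA sequencing libraries, so 3 SAOS2 libraries stood against 15 others, out of 45 libraries in all. The labels name no treatment, genetic change or culture time for these 18 libraries, and they do not say whether the 3 libraries of a line came from separate cultures. The remaining libraries came from 7 Ewing sarcoma lines (21 libraries), whose values are given only as a side view, and from A673 cells with an inducible hairpin (6 libraries), which were not used here.

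Genes that set SAOS2 apart included bone, matrix, signalling and cell cycle genes. It had the highest RNA levels of ALPL (mean 824 TPM), the alkaline phosphatase of bone, of SP7 (22.1 TPM), the osteoblast factor osterix, of COL1A1 (3192 TPM), the main bone collagen, and of NOTUM (2023 TPM), a WNT antagonist. It had the lowest levels of CCND1 (2.58 TPM), the cyclin of G1 phase, of ATRX (1.96 TPM), a chromatin remodeller, and of PXDN (0.0563 TPM), an enzyme of basement membranes. Not all bone genes were high in SAOS2. The collagen gene COL1A2 (118 TPM) lay within the range of the other lines, and the late bone genes BGLAP (0.361 TPM) and SPP1 (0.213 TPM) had low levels. TPM, the unit of level used throughout, is scaled for transcript length and library depth.

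A gene was taken as distinctive of SAOS2 where its lowest SAOS2 value lay above the highest of the 15 other values, or its highest SAOS2 value below the lowest of them. Of 21915 genes with enough counts to test, 3343 (15.3%) were highest in all 3 SAOS2 libraries and 1408 (6.42%) were lowest in all 3. With counts scaled for depth but not for length (CPM) the same rule gave 2568 and 1953 genes, so the share of highest among the distinctive genes was 70.4% in TPM and 56.8% in CPM. These are descriptions, with no test.

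As SAOS2 is 1 line, each line was first treated as 1 unit. With the libraries of a line summed, edgeR's quasi-likelihood test called 0 of 26632 genes (0%) between SAOS2 and the 5 other lines at a false discovery rate (FDR) under 0.05, while 1624 genes (6.1%) passed p under 0.05 before adjustment. DESeq2 called 773 genes on the same sums, and limma on log2(TPM + 1) called 405. A second fit kept the libraries apart, and called a gene where SAOS2 differed from each of the 5 lines in the same direction with an FDR under 0.05 and at least a 2-fold change. By this rule 1011 genes (4.61%) were higher and 746 (3.4%) were lower in SAOS2, which is 8.02% in either direction. Below, "higher" and "lower" with an adjusted p refer to this second fit, whose p-values measure only the spread between libraries of a line, which may be technical. The contrast printed is that with the nearest line, the one from which SAOS2 differed least. All 5 contrasts share the SAOS2 libraries.

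Total estimated counts were between 29536953 and 31665774 in SAOS2 and between 15974173 and 44911542 over the 18 libraries. The 3 SAOS2 libraries correlated with each other at r = 0.991 to 0.992 across genes. Across all genes, the line sums gave a median log2 fold change of -0.28, and the fold changes of gene lists are read beside it. The same median was 0.03 with limma on log2(TPM + 1), 0.13 with a pseudocount of 0.1 and -0.02 with fixed line means.

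The first group of genes concerns the entry into the cell cycle. The retinoblastoma protein, encoded by RB1, holds back S phase until cyclin D kinases phosphorylate it. The CDKN2A locus makes 2 proteins, p16, which inhibits those kinases, and ARF, which binds the ubiquitin ligase MDM2. SAOS2 is widely known as a line without functional RB1 protein, and RNA levels were the only measure here.

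RB1 RNA stood at 12, 13 and 12.3 TPM in the SAOS2 libraries and at 18.9 to 46.8 TPM (median 35.1) in the others. In these bulk libraries, fewer cells that express a gene and less RNA per cell cannot be told apart. All SAOS2 values were below all others, and RB1 was lower than in every other line (log2 fold change -1.02, SE 0.12, against U2OS, adjusted p = 6.9e-08). Its relative RBL1, which encodes p107, had 7.97, 7.5 and 8.61 TPM against 9.73 to 21.3 TPM (median 18.2), and it was likewise lower (log2 fold change -1.02, SE 0.12, against KHOS, adjusted p = 4.7e-08). The third family member RBL2 (p130) had 37.2, 37.1 and 37.8 TPM and lay inside the range of the other libraries, 11.7 to 105 TPM.

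CDKN2A, the marker gene taken for SAOS2, was highest there but was also expressed in G292. Its levels were 438, 391 and 386 TPM in SAOS2. G292 had 231 TPM ± 23.4 (SD, n = 3), while HOS-MNNG and U2OS had 0.0592 and 0.0593 TPM on average and KHOS and MG63 were listed at 0. The highest Ewing line mean was 162 TPM. SAOS2 and G292 did not overlap, with a log2 fold change of 0.62 (SE 0.13), adjusted p = 0.00044, which is under the 2-fold minimum, so CDKN2A does not count among the 1011. The ARF transcript NM_058195.4 made up 78.8% ± 1.03 (SD, n = 3) of CDKN2A TPM in SAOS2 at 319 TPM, and the p16 transcript NM_000077.5 made up 16.8% ± 0.818 at 67.8 TPM. In G292 the ARF share was 58.8% ± 1.17 and the p16 share 37.4% ± 1.33. SAOS2 therefore had more ARF RNA than G292 (136 TPM) but less p16 RNA (86.3 TPM in G292), and neither the levels nor the shares of these transcripts overlapped between the lines. Shares of estimated counts gave 79.6% and 15.5% in SAOS2.

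The neighbouring CDKN2B, which encodes the inhibitor p15, was at 35.8, 39 and 37.2 TPM in SAOS2. The other libraries lay at 0 to 6.06 TPM (median 0), with G292 the highest line (log2 fold change 2.67, SE 0.16, against G292, adjusted p = 2.5e-11). Every SAOS2 library was above every other library.

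The D cyclins were unevenly expressed. CCND1, the D cyclin most used in mesenchymal cells, was at 2.09, 2.53 and 3.1 TPM in SAOS2, and the other libraries held 109 to 595 TPM (median 211). The groups lay far apart (log2 fold change -5.58, SE 0.13, against U2OS, adjusted p = 1.5e-19), and all 7 Ewing sarcoma lines were above SAOS2 as well (454 to 1317 TPM). CCND2 had a single count over the 3 SAOS2 libraries, but it was also near 0 in 4 of the other lines and reached 56.5 TPM in U2OS alone. CCND3 had 116, 134 and 137 TPM against 36.5 to 82.4 TPM (median 57.3), so it was the D cyclin with the highest level in SAOS2 and was above all other libraries, under the 2-fold minimum of the count fit against HOS-MNNG (log2 fold change 0.39, SE 0.10, adjusted p = 0.0012). The kinases CDK4 (269 TPM) and CDK6 (18 TPM) lay within the range of the other lines, and so did the p18 gene CDKN2C (229 TPM).

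**Figure D1:**
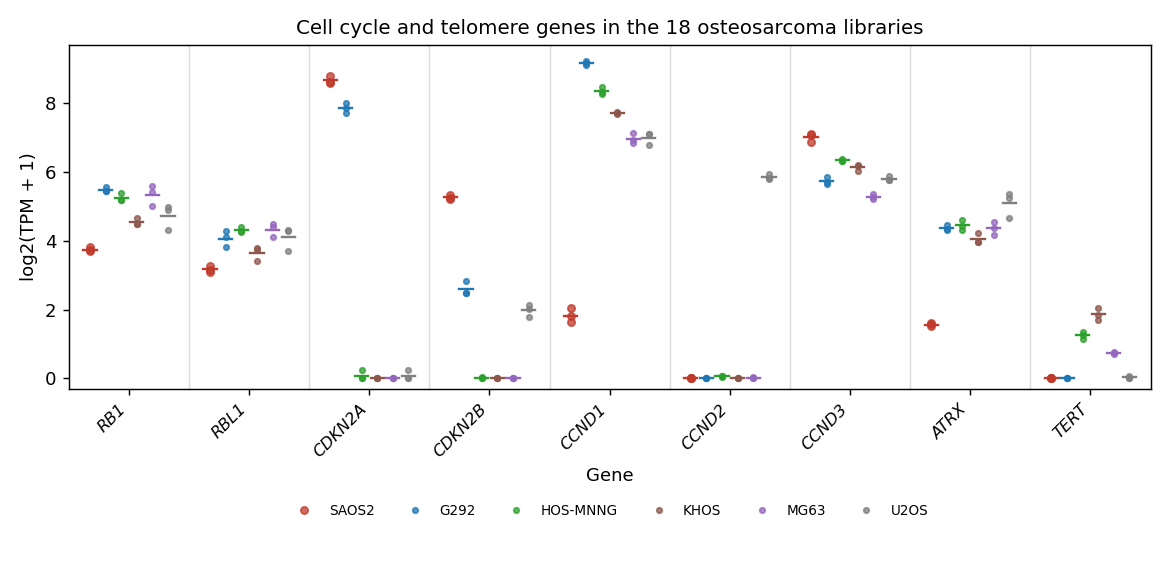
Levels of 9 cell cycle and telomere genes as log2(TPM + 1), with 1 point per library and a bar at the mean of the 3 libraries of each line. SAOS2 is lowest for RB1, RBL1, CCND1 and ATRX and highest for CDKN2A, CDKN2B and CCND3.

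Of 28 genes of the G1 control and RB pathway, 1 was higher (CDKN2B) and 3 were lower (CCND1, RB1 and RBL1), beside 4.61% and 3.4% of all genes. The median line-sum log2 fold change of the list was -0.21, beside -0.28 for all genes. E2F1, the transcription factor that RB1 restrains, had 61.4 TPM in SAOS2 and 40.5 to 61.1 TPM elsewhere. Its SAOS2 values overlapped with the upper end of that range.

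Proliferation genes were counted in the same way. MKI67, a general proliferation marker, had 72 TPM in SAOS2 and 46.9 to 121 TPM elsewhere. Of 43 S phase genes, 0 were higher and 1 was lower, POLE2, a subunit of the leading-strand DNA polymerase, with 5.03, 6.0 and 5.25 TPM against 13 to 55.3 TPM, median 35.7 (log2 fold change -1.66, SE 0.12, against MG63, adjusted p = 4.7e-11). Of 34 G2/M genes, 0 were higher and 2 were lower, both with roles at the mitotic checkpoint: CDC20, the activator of the anaphase-promoting complex (67.4, 75.5 and 79.9 TPM, others 205 to 522 TPM), and the checkpoint kinase BUB1 (31.8, 38.7 and 39.4 TPM, others 56.7 to 124 TPM). The shares of all genes were 4.61% higher and 3.4% lower. The median log2 fold changes were -0.38 for the S phase list and -0.49 for the G2/M list, beside -0.28 for all genes.

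CDKN1A, the p21 inhibitor of cyclin kinases (27.5, 20.5 and 18.6 TPM, others 9.17 to 195 TPM), and MDM2 (31.1, 29.7 and 28.2 TPM, others 8.75 to 39.5 TPM), lay within the other libraries. SPATA18, a mitochondrial quality gene, was higher at a low level (mean 0.453 TPM, SD 0.118, n = 3, others at most 0.128). The stress cytokine GDF15 had 0.129, 0.129 and 0.136 TPM against 0.632 to 20.7 TPM (median 4.08) and was lower (log2 fold change -3.16, SE 0.54, against G292, adjusted p = 2e-05). CMBL, a hydrolase gene, had 0.249, 0.221 and 0.439 TPM against 8.03 to 57.7 TPM and was lower too.

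ATRX encodes a chromatin remodeller that places histone H3.3 at telomeres, and its loss is known from tumours that lengthen telomeres without telomerase. It stood at 2.04, 1.99 and 1.86 TPM in SAOS2. No other osteosarcoma library was below 14.7 TPM and none of the 7 Ewing lines below 16.5 TPM, so SAOS2 lay below every other osteosarcoma library and every Ewing line mean (log2 fold change -4.06, SE 0.13, against KHOS, adjusted p = 2.5e-17). TERT, the catalytic subunit of telomerase, had 0 counts in the 3 SAOS2 libraries and in G292. In the other lines it reached 1.38 TPM in HOS-MNNG, 2.65 in KHOS and 0.668 in MG63, against 0.0265 in U2OS. Against a floor of 3 counts over the SAOS2 libraries, the pooled count of the other libraries, scaled for pooled depth, was at least 65.6-fold higher. This bound covers counting error only. Since G292 was also at 0, TERT was not called. Of 20 telomere genes, ATRX was the 1 gene that was lower and 0 were higher, beside 3.4% and 4.61% of all genes.

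The second group holds the osteoblast genes. Bone-forming cells are specified by RUNX2 and then by SP7 (osterix), which switch on a collagen-rich matrix and alkaline phosphatase, the enzyme that frees phosphate for mineral. Late products such as osteocalcin (BGLAP), bone sialoprotein (IBSP) and osteopontin (SPP1) follow. SAOS2 is known in the field for its alkaline phosphatase activity and its ability to mineralise.

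ALPL, the gene of tissue-nonspecific alkaline phosphatase, had 919, 746 and 808 TPM in SAOS2, while the other libraries held 0.0265 to 18.6 TPM (median 2.69). The lowest SAOS2 library was thus far above the highest other, a G292 library (log2 fold change 5.84, SE 0.48, against G292, adjusted p = 1.3e-07). Among the Ewing lines the range was 3.44 to 187 TPM. SP7 was at 20.1, 20.7 and 25.4 TPM in SAOS2 and at 0 to 0.0418 TPM in the others, where G292 and U2OS had 0 in all libraries. Both genes separated SAOS2 from every other osteosarcoma library.

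RUNX2 reached 175, 193 and 191 TPM in SAOS2 against 0.277 to 12.8 TPM (median 8.21), and was higher (log2 fold change 2.68, SE 0.11, against HOS-MNNG, adjusted p = 3.8e-15). The noncoding transcripts NR_103533.2 and NR_103532.2 made up 54.1% and 11.3% of RUNX2 TPM in SAOS2, but 6.38% and 1.53% of its estimated counts. The protein-coding transcripts alone summed to 64.5 TPM ± 2.47 (SD, n = 3) in SAOS2. By the same measure they came to 11 TPM in U2OS, 8.73 in HOS-MNNG, 6.46 in KHOS, 4.44 in G292 and 0.387 in MG63. SAOS2 was thus first with the coding transcripts alone too, while G292, above HOS-MNNG and KHOS over all transcripts (9.38 against 8.80 and 6.65 TPM), was below both. This sum was chosen after the values had been seen.

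RUNX2 is transcribed from an upstream and a downstream start, 93945 bases apart in RefSeq. Coding transcripts from the upstream start, the one known from osteoblasts, made up 64.5% ± 8.07 (SD, n = 3) of coding RUNX2 TPM in SAOS2. The share was 37.7% ± 9.72 in G292, 7.06% ± 6.45 in HOS-MNNG, 6.55% ± 11.3 in KHOS and 8.07% ± 7.80 in U2OS. MG63 had 89.7% ± 17.9 at a coding level of only 0.387 TPM. In level, the upstream start gave 41.7 TPM ± 6.53 in SAOS2 and at most 1.68 TPM on average in any other line. The start of 1 coding transcript was not matched and it held 15.3% of coding TPM in SAOS2. In the other lines it held more, 29.9% in G292, 39.25% in HOS-MNNG, 59.3% in KHOS and 42.1% in U2OS, though near 0 in MG63. The upstream shares are therefore minimum values, least certain in KHOS. In level, the unmatched transcript had at most 4.76 TPM on average in any other line.

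Since the upstream RUNX2 start and the ALPL gene separated SAOS2 from the other lines, the sequence before these starts is shown, taken from RefSeq on GRCh38.p14 and limited to the bases that overlap no annotated exon. Capitals in the first sequence mark the RUNX core motif (TGTGGT or its reverse complement ACCACA, searched on both strands), and capitals in the second mark the GC box (GGGCGG or CCGCCC, both strands). The first is chr6:45328080-45328156, plus strand, 77 bases from the outer part of the upstream RUNX2 promoter. The second is chr1:21509173-21509371, plus strand, 199 bases before an ALPL start.
RUNX2 upstream start: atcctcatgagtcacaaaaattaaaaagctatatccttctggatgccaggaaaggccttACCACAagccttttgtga
ALPL start: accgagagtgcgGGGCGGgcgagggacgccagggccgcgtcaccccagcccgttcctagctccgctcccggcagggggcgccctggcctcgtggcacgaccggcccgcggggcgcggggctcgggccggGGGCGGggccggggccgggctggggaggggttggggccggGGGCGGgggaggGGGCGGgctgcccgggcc
The RUNX2 window holds 1 RUNX core match, as do 3.65% of 35116 RefSeq promoters in a window of the same length and position. The ALPL window holds 4 GC boxes and 0 RUNX core matches, with a GC content of 85.4%. At that length 34.8% of promoters hold at least 1 GC box and 8.95% a RUNX core. A match is a description of letters and shows no binding.

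DLX5, a homeobox factor upstream of SP7, had 66.9, 75 and 82.8 TPM in SAOS2 against 0 to 19.7 TPM (median 0.363) and was higher (log2 fold change 1.82, SE 0.18, against G292, adjusted p = 1.1e-08). TWIST2, a factor that restrains RUNX2 in early cells, stood at 0.0599, 0.0556 and 0.0534 TPM and was lower, with 4.55 to 67.8 TPM (median 42.7) in the others (log2 fold change -3.24, SE 0.21, against U2OS, adjusted p = 6.4e-12). Of 18 osteoblast transcription factors tested, 3 were higher and 1 was lower (4.61% and 3.4% of all genes). The list had a median log2 fold change of 0.65, beside -0.28 for all genes, and it was drawn up with earlier results of these data known.

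Among the differentiation and mineralisation genes, 5 of 23 tested were higher and 1 was lower (4.61% and 3.4% of all genes), with a list median of -1.11. BMP4, a bone morphogenetic ligand, had 661, 465 and 484 TPM in SAOS2, and the next line was U2OS at 270.3 TPM (log2 fold change 1.02, SE 0.33, against U2OS, adjusted p = 0.013). SMPD3, a sphingomyelinase needed for bone mineral (mean 0.977 TPM, SD 0.454, n = 3), and OMD, the proteoglycan osteomodulin (mean 0.323 TPM, SD 0.103, n = 3), were higher at low levels. SLC20A1, a phosphate importer, was the lower gene at 35, 32.1 and 28.6 TPM against 85.6 to 517 TPM (median 164). PTH1R, the parathyroid hormone receptor, had 5.24, 3.65 and 3.84 TPM and was above all other libraries (at most 2.28 TPM), but under the 2-fold minimum of the count fit against KHOS.

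Late osteoblast products had low levels in SAOS2. IBSP was at 0.566, 0.237 and 0.298 TPM and too low to be tested. It was low in every line, with means of 0.244 TPM in G292, 0.0303 TPM in U2OS and 0 in the other 3, so SAOS2 had the highest mean and overlapped with G292. BGLAP was at 0, 0.717 and 0.366 TPM while MG63 had 7.4 TPM. SPP1 stood at 0.19, 0.0984 and 0.351 TPM, and the other lines spread from 0.0269 TPM in MG63 to 196 TPM in KHOS. SAOS2 values of BGLAP overlapped with those of other lines, and those of SPP1 lay above the MG63 libraries and below all others.

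**Figure D2:**
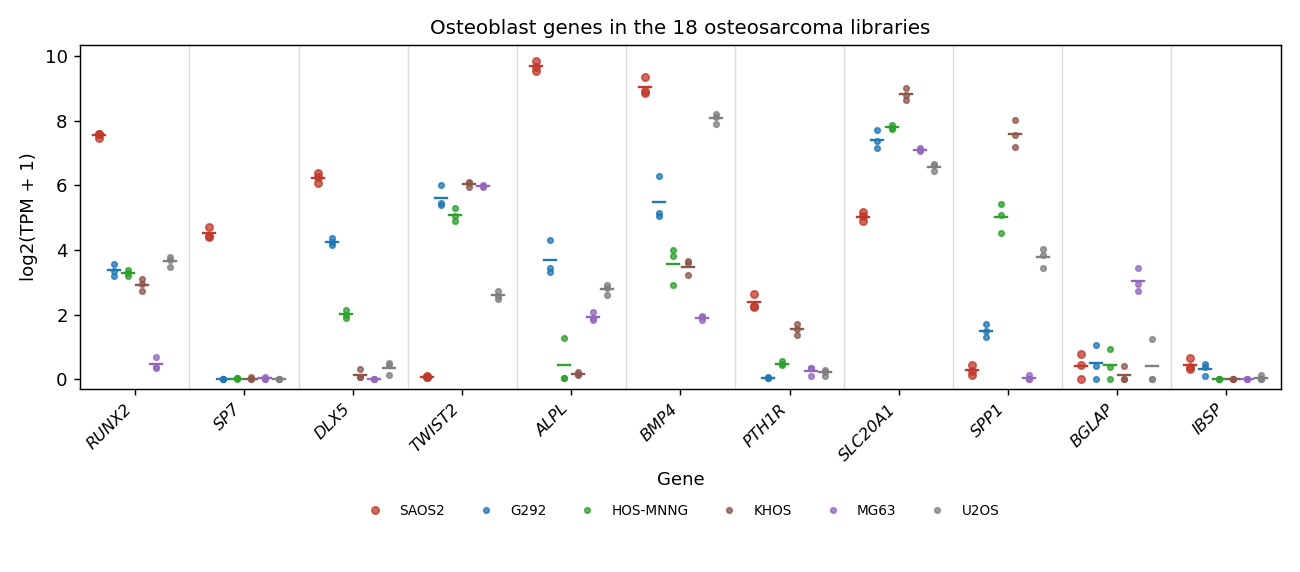
Levels of 11 osteoblast genes as log2(TPM + 1), with 1 point per library and a bar at the mean of the 3 libraries of each line. SAOS2 stands above all other lines for RUNX2, SP7, DLX5, ALPL, BMP4 and PTH1R and below them for TWIST2 and SLC20A1, while SPP1 and BGLAP are low in SAOS2, SPP1 between MG63 and the other lines, and IBSP is low in every line.

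The third group is the extracellular matrix. Fibrillar collagens (types I, III, V and XI) build the fibres of bone, type VI forms beaded filaments around cells, and type IV makes the mesh of basement membranes. Of 30 collagen genes, 8 were higher and 5 were lower, and the median log2 fold change of the list was -0.33. Of all genes, 4.61% were higher and 3.4% lower.

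COL1A1, the main chain of type I collagen, had 3012, 3412 and 3153 TPM in SAOS2 against 65 to 995 TPM, median 615 (log2 fold change 1.69, SE 0.13, against MG63, adjusted p = 1.7e-10). Its partner chain COL1A2 was not called. COL1A2 had 148, 110.1 and 96.9 TPM in SAOS2, between 838 TPM in MG63 and 520.0 in G292 on one side and 5.11, 0.69 and 0.134 TPM in KHOS, HOS-MNNG and U2OS on the other. Its log2 fold change in the line sums was -1.44 (SE 4.0), and the direction turned with other ways of averaging the lines, given with the settings at the end.

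COL5A1 and COL5A2, the chains of type V collagen that start fibril assembly, were both higher. COL5A1 had 769, 667 and 632 TPM against 17.5 to 80.4 TPM, median 46.7 (log2 fold change 3.01, SE 0.10, against MG63, adjusted p = 9.2e-17), and COL5A2 had 876, 755 and 698 TPM against 22.5 to 279 TPM (median 48). COL11A1 had 89.4, 59.7 and 53.6 TPM in SAOS2 and 18 TPM in U2OS, and was near 0 in the other 4 lines. COL8A2 (mean 14.9 TPM, SD 5.61, n = 3) and COL10A1 (mean 5.4 TPM, SD 2.52, n = 3) were higher as well, the other libraries reaching at most 1.01 and 0.424 TPM.

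Type VI collagen split by chain. COL6A2 had 2757, 3329 and 3384 TPM in SAOS2 and was higher (log2 fold change 1.54, SE 0.20, against G292, adjusted p = 4.9e-06, others 117 to 1231 TPM). COL6A1 had 1627, 1758 and 1806 TPM and was above all other libraries, but under the 2-fold minimum against G292 (log2 fold change 0.87, SE 0.15, adjusted p = 5.2e-05). COL6A3, the large chain that completes the filament, was at 0.332, 0.561 and 0.652 TPM against 18.4 to 493 TPM (median 259) and was lower (log2 fold change -5.45, SE 0.22, against U2OS, adjusted p = 4.1e-13). The lowest other line was U2OS, at 23.3 TPM.

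The type IV chains were close to 0 in SAOS2. COL4A1 had 0.0518, 0 and 0 TPM and COL4A2 had 0.231, 0.178 and 0.365 TPM. No other library fell below 13.4 TPM for COL4A1 or 20.9 TPM for COL4A2. The genes lie head to head on chromosome 13, their RefSeq starts 126 bases apart, and the log2 fold changes against the nearest line were -9.75 (SE 0.25) against G292 and -6.70 (SE 0.15) against G292. Fitted fold changes of genes this near to 0 depend on edgeR's prior count. COL13A1, a membrane collagen, was lower too, at 0.0894, 0.0896 and 0.141 TPM against 10.4 to 53.6 TPM.

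PXDN, the peroxidase that crosslinks type IV collagen, had the widest gap among protein-coding genes lowest in SAOS2. It stood at 0.0721, 0.0103 and 0.0865 TPM in SAOS2 and at 42.5 to 262 TPM (median 76.1) in the others (log2 fold change -9.85, SE 0.23, against U2OS, adjusted p = 4.4e-19), and the Ewing lines held 29.6 to 239 TPM. Of 29 crosslinking and matricellular genes tested, 4 were higher and 4 were lower (4.61% and 3.4% of all genes), with a median of 0.15. The higher ones were the lysyl and prolyl hydroxylases PLOD1 (477 TPM), PLOD3 (267 TPM) and P4HA2 (87.1 TPM), which modify collagen chains, and THBS1, thrombospondin 1 (220.5 TPM). The other libraries reached at most 170.3, 69.7, 43 and 118 TPM for these genes. BGN, the proteoglycan biglycan, was at 0.129, 0.146 and 0.203 TPM, near U2OS (0.425 TPM) and far from the other 4 lines (153 TPM or more). FBLN1 (24.1 TPM, others 64.2 to 176 TPM) and FBLN5, fibulins of elastic fibres, were lower. FBLN5 had 3 counts over the SAOS2 libraries, a mean of 0.028 TPM, and the other lines spread from 0.569 TPM in KHOS and 0.766 TPM in HOS-MNNG to 31.5 TPM in G292.

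**Figure D3:**
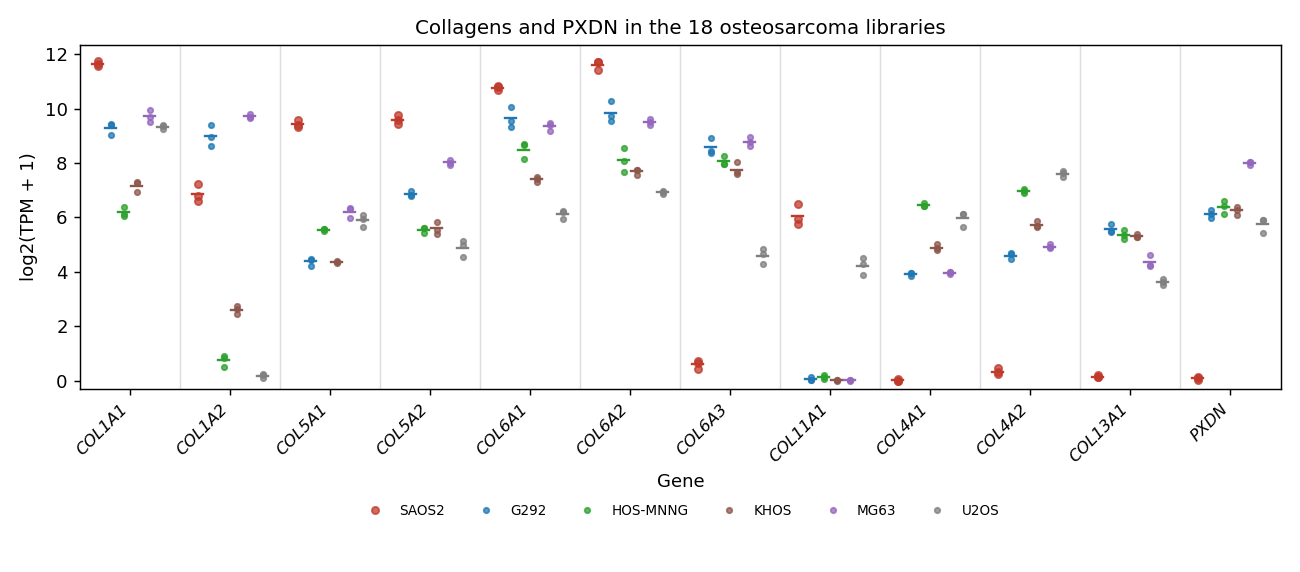
Levels of 11 collagen genes and PXDN as log2(TPM + 1), with 1 point per library and a bar at the mean of the 3 libraries of each line. In SAOS2 the chains of types I, V and XI other than COL1A2 and the first 2 chains of type VI are above the other lines, and COL6A3, COL4A1, COL4A2, COL13A1 and PXDN are below them.

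Of 22 matrix metalloproteases, plasminogen system genes and inhibitors, 0 were higher and 2 were lower (4.61% and 3.4% of all genes), with a list median of -2.63, beside -0.28. PLAT, tissue plasminogen activator, had 0.201, 0.151 and 0.177 TPM against 4.39 to 40.3 TPM, and TIMP3, a matrix-bound inhibitor, had 21.1, 18.7 and 19.7 TPM against 38 to 643 TPM. Of 18 integrins, 2 were higher and 1 was lower, beside 4.61% and 3.4% of all genes. ITGB4 (177, 136 and 129 TPM, others at most 6.35), the laminin-binding chain of hemidesmosomes, and ITGA11 (60.3, 42.2 and 43.6 TPM, others at most 21.1), a collagen receptor chain, were higher. ITGA2, another collagen receptor chain, was lower (mean 0.569 TPM, SD 0.112, n = 3, others at least 1.73).

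The fourth group is signalling. WNT ligands act through Frizzled and LRP5 or LRP6 receptors to stabilise beta-catenin, which promotes bone formation, and many antagonists of the pathway are also its targets. Of 46 WNT pathway genes tested, 7 were higher and 2 were lower, beside 4.61% and 3.4% of all genes, and the list median was -0.29, beside -0.28.

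NOTUM, a secreted enzyme that inactivates WNT ligands by removing their lipid, had the widest gap among protein-coding genes highest in SAOS2. It had 1858, 2063 and 2149 TPM in SAOS2, and the other libraries held 0.14 to 5.15 TPM, median 0.857 (log2 fold change 8.61, SE 0.27, against G292, adjusted p = 9.4e-14). No Ewing line exceeded 3.30 TPM. Among the ligands, WNT11, which acts mainly without beta-catenin, had 109, 75.5 and 85.2 TPM against 0.0662 to 4.71 TPM, median 0.448 (log2 fold change 4.53, SE 0.23, against U2OS, adjusted p = 1.1e-12). RNF43, a ligase that removes Frizzled receptors, had 8.98, 7.26 and 8.5 TPM in SAOS2 and at most 1.48 TPM elsewhere. The antagonist SFRP2 was higher (mean 4.31 TPM, SD 0.142, n = 3, others at most 0.105), while its relative SFRP1 was lower (0.43, 0.307 and 0.355 TPM, others 10.8 to 215 TPM). LRP5, the co-receptor tied to bone mass, stood at 4.27, 3.38 and 2.99 TPM against 7.64 to 121 TPM (median 21.8) and was lower (log2 fold change -1.33, SE 0.20, against U2OS, adjusted p = 1.3e-05).

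Of 29 receptor tyrosine kinases tested, 5 were higher and 1 was lower, beside 4.61% and 3.4% of all genes. The list median was 0.24, and 10 of the 29 were highest in all 3 SAOS2 libraries, beside 15.3% of all genes. KIT, the stem cell factor receptor, had 58.2, 70.3 and 64.2 TPM in SAOS2 and at most 0.625 TPM in any other osteosarcoma library (log2 fold change 6.77, SE 0.23, against HOS-MNNG, adjusted p = 3.2e-15). One Ewing line was above SAOS2, at 75.1 TPM. FGFR2 (52.1, 51.7 and 51.5 TPM) and FGFR3 (14, 15.2 and 16.4 TPM), fibroblast growth factor receptors of the skeleton, were higher, with U2OS the nearest line at 10.2 and 1.45 TPM. NTRK3, the neurotrophin 3 receptor, had 18.1, 26.2 and 23.5 TPM against at most 3.67 TPM. MERTK, a receptor for apoptotic cells, was lower (mean 1.1 TPM, SD 0.127, n = 3, others at least 1.49). ROS1, an orphan receptor kinase named by its gap, had 65, 82.8 and 77.1 TPM and at most 1.09 TPM elsewhere (log2 fold change 6.31, SE 0.17, against U2OS, adjusted p = 1.2e-17).

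**Figure D4:**
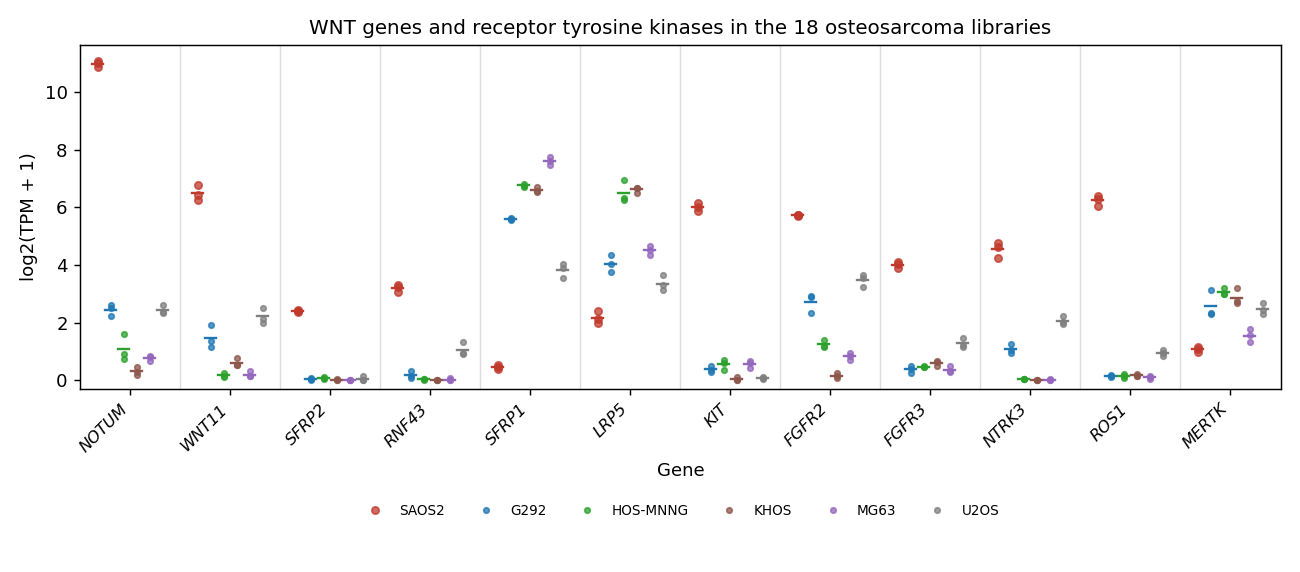
Levels of 6 WNT pathway genes and 6 receptor kinases as log2(TPM + 1), with 1 point per library and a bar at the mean of the 3 libraries of each line. NOTUM, WNT11, SFRP2, RNF43, KIT, FGFR2, FGFR3, NTRK3 and ROS1 are above all other lines in SAOS2, and SFRP1, LRP5 and MERTK are below them.

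Of 38 TGF-beta and BMP pathway genes, 3 were higher (among them BMP4) and 1 was lower, beside 4.61% and 3.4% of all genes. TGFB1, the ligand stored in bone matrix, had 404, 305 and 303 TPM against 39.8 to 137 TPM, median 92.6 (log2 fold change 1.08, SE 0.11, against KHOS, adjusted p = 6.3e-09). ID3, a target of BMP signalling, was called higher, but its first SAOS2 library lay among the others: the values were 265, 1047 and 1015 TPM against 109 to 329.7 TPM. TGFBR3, betaglycan, was lower (mean 1.0 TPM, SD 0.233, n = 3, others at least 2.92). CCN1, a matricellular YAP target, was the 1 gene higher (4.61% of all genes) among 22 YAP and caveola genes (2189.9, 1534 and 2461 TPM, others 232 to 919.7 TPM).

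Interferon-induced genes act against viruses in many cell types. Of 25 interferon response genes, 0 were higher and 3 were lower (4.61% and 3.4% of all genes), with a median of -1.17, beside -0.28 for all genes. BST2 (tetherin) had 1 count over the SAOS2 libraries against 0.251 TPM or more elsewhere. ISG20, an RNA nuclease, had 0.621 TPM ± 0.178 (SD, n = 3) (others at least 1.09), and OASL, which acts in RNA sensing, had 0.308 TPM ± 0.0548 (SD, n = 3) and overlapped with the lowest other library (0.334 TPM).

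Of 37 HOX genes tested, 1 was higher and 3 were lower, beside 4.61% and 3.4% of all genes. By TPM, 10 of the 37 were highest and 6 lowest in all 3 SAOS2 libraries, beside 15.3% and 6.42% of all genes. HOXD13, a gene of the distal limb, had 12.8, 14.8 and 11.9 TPM against 0.105 to 4.18 TPM. HOXB9 (mean 0.548 TPM, SD 0.167, n = 3, others at least 1.59), HOXC11 (mean 0.817 TPM, SD 0.0781, n = 3, others at least 0.983) and HOXC13 (mean 0.257 TPM, SD 0.0656, n = 3, others at least 1.29) were lower. HOXC11 was at the edge of the 2-fold minimum, with a log2 fold change of -1.0 (SE 0.20) against KHOS. Of 17 IGF axis genes, IGF1 was the 1 higher gene, beside 4.61% of all genes. It had 0.172 TPM ± 0.023 (SD, n = 3), and all 7 Ewing lines were above it. At this low level the gap to the nearest other library was only 0.052 on the log2(TPM + 1) scale (log2 fold change 1.63, SE 0.67, against U2OS, adjusted p = 0.038). TJP1, the tight junction scaffold ZO-1, was the 1 higher gene among 17 junction genes (122, 138 and 133 TPM, others 14.8 to 54.3 TPM), beside 4.61% of all genes.

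The calcium-activated potassium channels, the family that holds KCNN1, were measured in all lines. KCNN1 was at 0.0228, 0.0809 and 0.178 TPM in SAOS2, U2OS had 4.36 TPM and the Ewing lines had 7.57 to 48.9 TPM. KCNN3 was the 1 of 5 channel genes that was higher (3.26, 1.7 and 1.84 TPM, others 0.0182 to 1.37 TPM), at a low level, beside 4.61% of all genes. KCNN4 (68.5, 98 and 87.1 TPM, others 5.99 to 117 TPM) and KCNMA1 (39.5, 34.7 and 31.4 TPM, others 16.6 to 273 TPM) lay within the range of the other lines.

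Outside the lists, protein-coding genes were named by their gap, the distance on the log2(TPM + 1) scale between SAOS2 and the nearest other library. The 12 with the widest gap upwards held CSAG1, CTAG2, MAGEC2 and MAGEA9B, each known as a cancer-testis gene, a class normally restricted to germ cells. They were picked by their gap, and no list of such genes was counted. CSAG1 had 201, 199 and 194 TPM, CTAG2 201, 215 and 214 TPM, MAGEC2 53.4, 58.8 and 69.4 TPM and MAGEA9B 33.1, 36.3 and 36.5 TPM. In the other libraries they reached at most 0.22, 1.48, 0.119 and 0.0628 TPM. CSAG1, CTAG2 and MAGEA9B have near-identical copies, so the split of reads between copies is uncertain.

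SLN, sarcolipin, a small regulator of the muscle calcium pump, had 477, 336 and 335 TPM in SAOS2 and at most 1.6 TPM in the others (log2 fold change 8.23, SE 0.26, against U2OS, adjusted p = 8.1e-16). GREP1, a gene for a secreted protein, had 198, 139.7 and 154 TPM against at most 0.417 TPM. JAG2, a Notch ligand, had 175, 162 and 161 TPM against 0 to 2.36 TPM, median 1.23 (log2 fold change 6.47, SE 0.14, against MG63, adjusted p = 7.4e-20). ACTA2, smooth muscle actin, had 526, 493 and 452 TPM in SAOS2, with MG63 the highest other line at 13.1 TPM (log2 fold change 4.80, SE 0.15, against MG63, adjusted p = 3.6e-17).

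Of the 12 with the widest gap downwards, COL4A1, COL4A2, COL6A3, PXDN and CCND1 have been described. FAM20C, the kinase that phosphorylates secreted bone matrix proteins, had 1 count over the 3 SAOS2 libraries and 16.8 to 106 TPM (median 38.4) in the others. Its pooled count, scaled for pooled depth, was 8821-fold lower than that of the other libraries, with a counting interval of 1583 to 348417. TRIP4, a transcriptional coactivator, had 0.144, 0 and 0.0406 TPM against 19.6 to 31.4 TPM, and SWAP70, a RAC regulator, 0.299, 0.308 and 0.357 TPM against 17.1 to 51 TPM. All 7 Ewing lines were above SAOS2 for FAM20C, TRIP4 and SWAP70.

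PRDX2, a peroxiredoxin that clears peroxide, was at 9.24, 8.51 and 8.74 TPM against 122 to 548 TPM, median 233 (log2 fold change -4.22, SE 0.13, against HOS-MNNG, adjusted p = 9.5e-18). S100A16, a calcium-binding protein, had 2.9, 2.89 and 2.6 TPM against 152 to 1738 TPM (median 259). TM4SF1, a tetraspanin-like membrane protein (mean 1.06 TPM, SD 0.336, n = 3), and CAPG, an actin filament capping protein (mean 0.90 TPM, SD 0.237, n = 3), were lower than any other library (at least 43.5 and 38.8 TPM). PRDX2 was also below all 7 Ewing lines, whereas for S100A16 only 1 Ewing line was above SAOS2.

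Beyond the osteosarcoma lines, 828 of the 1011 higher genes (81.9%) were also above the mean of every Ewing line, and 453 of the 746 lower genes (60.7%) were below all 7. The like shares over all genes tested were not counted, so these 2 shares have no background and are descriptions only. U2OS was the nearest line for 387 of the 1011 higher genes, G292 for 232 and KHOS for 84. For the 746 lower genes these counts were 183, 181 and 99, and for all 21915 genes tested 5009, 5193 and 3414. The higher genes included 298 long noncoding RNA genes (29.5%) and the lower ones 110 (14.7%), beside 23.7% of all genes tested. The median level of the higher genes was 6.71 TPM in SAOS2 and 0.53 TPM in the other lines, and that of the lower genes 0.39 and 7.53 TPM. Across 21915 genes, SAOS2 correlated with the other lines at Spearman's rho of 0.839 (U2OS) to 0.864 (G292), a description over genes that share libraries and are not independent, and HOS-MNNG with KHOS at 0.966.

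The share of called genes ranged widely over the chromosomes. The largest share of higher genes was on chromosome 6, with 110 of 1139 genes tested (9.66%), followed by X with 66 of 767 (8.6%), beside 4.61% overall. RUNX2 and ROS1 are among the genes of chromosome 6, and MAGEC2, CTAG2 and CSAG1 among those of X. The smallest share was on chromosome 16, with 13 of 915 (1.42%). Lower genes took their largest shares on chromosome 8, with 69 of 794 (8.69%), and on chromosome 10, with 53 of 886 (5.98%), beside 3.4% overall. Genes on 1 chromosome are not independent, and no test was made; DNA copy number was not analysed here.

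Windows of 10000000 bases with at least 20 genes tested were counted as well. Between 90000001 and 100000000 on chromosome 1, 34 of 61 genes (55.7%) were highest in all 3 SAOS2 libraries, and between 80000001 and 90000000 on chromosome 6, 29 of 56 (51.8%), beside 15.3% overall. Between 50000001 and 60000000 on chromosome 8, 17 of 36 genes (47.2%) were lowest in all 3, beside 6.42% overall. The next windows, each with 33.3% lowest, lay between 230000001 and 240000000 on chromosome 1 (20 of 60), between 30000001 and 40000000 on chromosome 8 (19 of 57) and between 90000001 and 100000000 on chromosome 3 (7 of 21). Positions are those of RefSeq on GRCh38.p14.

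**Figure D5:**
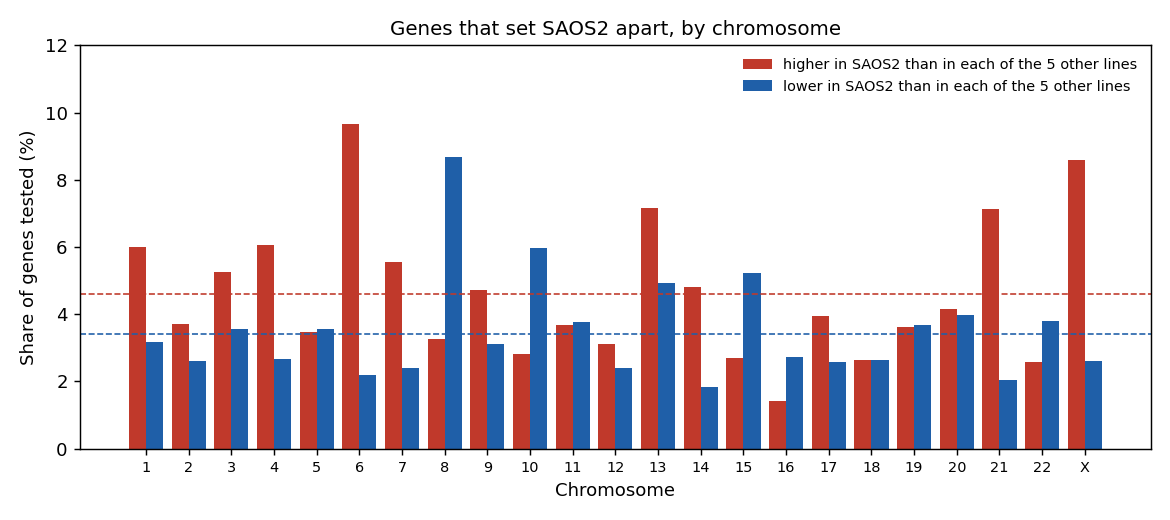
Share of genes tested on each chromosome that were higher (red) or lower (blue) in SAOS2 than in each of the 5 other lines, in percent, with dashed lines at the shares over all genes, 4.61% and 3.4%. The red bar is tallest on chromosome 6 (9.66%) and the blue bar on chromosome 8 (8.69%).

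Markers of other cell types were checked in the same libraries. PTPRC, the common leukocyte antigen, was at most 0.122 TPM in SAOS2, and the endothelial genes PECAM1 and CDH5 at most 0.285 and 0.0679 TPM. Summed leukocyte markers were 19.9 to 21.3 TPM in SAOS2 (14.3 to 134.9 elsewhere), 2 of 10 at 0, and endothelial ones 16.5 to 20.4 TPM (7.20 to 98.7 elsewhere), 0 of 10 at 0. Epithelial markers summed to 138.9 to 156 TPM against 12.7 to 1852 TPM, mostly KRT18, with 4 of 15 at 0. Muscle markers summed to 4.45 to 5.17 TPM against 3.71 to 274.9 TPM, with 3 of 10 at 0, and neural ones to 106.9 to 111.01 TPM against 245.02 to 909.1 TPM, with 4 of 12 at 0. Chondrocyte markers, which include COL10A1, summed to 194.6 to 349.2 TPM against 17.4 to 217 TPM, with 1 of 14 at 0, and HAPLN1, a cartilage link protein, had the highest level among them in SAOS2 (178.6 TPM). The cartilage genes SOX9 (37.1 TPM, others 11.5 to 85.4 TPM) and COL2A1 (0.247 TPM, others 0 to 5.91 TPM) lay within the other lines, and the part of any mixture of cell types in the results was not tested.

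At the edge of the rule the values were close, and some differ by less than the digits shown. Just inside as highest were SOD1 (788, 971 and 969 TPM, others at most 788), PHF10 (57.2, 56 and 51.2 TPM, others at most 51.2) and RAMAC (53.7, 52.5 and 51 TPM, others at most 51). Just outside were RNF11 (136, 135 and 135 TPM, others at most 135), CEP95 (47.5, 39.4 and 37.7 TPM, others at most 37.7) and TRIM33 (27.7, 25.3 and 22.9 TPM, others at most 22.9). Just inside as lowest were TXNL4A (32.6, 31.6 and 29.7 TPM, others at least 32.6), RIMS4 (0, 0.0251 and 0.0132 TPM, others at least 0.0254) and BEND4 (0.0079, 0.00789 and 0.0083 TPM, others at least 0.00835). CYP21A2, SLC14A1 and LRRC3B were just outside, as they were at 0 in SAOS2 and in at least 1 other library.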

How the data were processed

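Poly(A) RNA of 45 libraries was sequenced after TruSeq Stranded mRNA preparation, per the labels. Reads were processed with fastp 0.19.5 and kallisto 0.46.2, and the build named is GRCh38.p14, per the submitters' processing notes; the sources used here state no options or strand settings. The authors deposited estimated counts, which are expected counts not scaled for depth, TPM, and other values, namely the effective length, for 177816 RefSeq transcripts per library. Deposited TPM values are scaled by the authors for length and depth.

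Here 169966 transcripts (95.6%) were joined to 41582 genes through RefSeq GRCh38.p14, with the version ignored. Those without a gene held 1.14% to 1.598% of the counts and were left out, and the tables held 0 mitochondrially encoded genes. Gene counts were rounded, filtered with filterByExpr, scaled by TMM and fitted with edgeR 4.0.16 (quasi-likelihood, Benjamini-Hochberg FDR), with DESeq2 1.42.0 and limma 3.58.1 (pseudocount 1 TPM) as alternatives, under R 4.3.3. The members, the 27 gene lists and the genes named were chosen with earlier results of these data known, so counts in lists are not independent evidence. Genes named were a fixed set of cell cycle, bone, collagen, telomere and channel genes, the 12 widest gaps each way among protein-coding genes, up to 4 called members per list and direction, and 3 on either side of the rule's edge; CCND2, CCND3, CDK4, CDK6, CDKN2C, RBL2, E2F1, MKI67, PTH1R, COL5A2, SOX9, COL2A1, PTPRC, PECAM1 and CDH5 were added after their values were seen. Some genes and lists are not reported here. An exact permutation test of 1 line against 5 cannot go below p = 0.167. Intervals and floors cover counting error only, since the reads carry no molecular identifiers.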

Additional observations from a re-analysis of the deposited data

Results flagged for a closer look

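Among the 106 named genes, the means of the 5 other lines were checked for 1 line far from the rest (Dixon's test, critical value 0.71 for 5 values), and 19 genes had such a line. Chance gives about 1 in 20 only for independent, normally distributed values. HOS-MNNG and KHOS share an origin and the genes were chosen with earlier results known, so the count is not read against that rate. U2OS stood high for SLN (1.24 TPM), CTAG2 (1.2), ROS1 (0.929), COL11A1 (18), RNF43 (1.1), FGFR3 (1.45) and KCNN1 (4.36), and SAOS2 was above U2OS for all of these but KCNN1. U2OS stood low for COL6A3 (23.3 TPM), TWIST2 (5.04) and BGN (0.425), where SAOS2 was lower still.

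G292 stood high for CDKN2A (231 TPM), IBSP (0.244) and CSF1R (0.997), the macrophage receptor that was higher in SAOS2 (mean 2.77 TPM, SD 0.499, n = 3). MG63 stood high for BGLAP (7.4 TPM), PXDN (255) and CMBL (51.8) and low for RUNX2 (0.39). KHOS stood high for S100A16 (1602 TPM) and HOS-MNNG for KCNN3 (0.719 TPM).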

How the results depend on the processing

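With the lines summed, the count of calls depended on the tool and on the spread used. It was 0 with edgeR, also with RLE size factors, without the low-count filter, with a length offset and with HOS-MNNG and KHOS as 1 unit. It was 773 with DESeq2 (241 higher, 532 lower), 405 (393 higher, 12 lower) with limma on log2(TPM + 1) and 156 (141 higher, 15 lower) with a pseudocount of 0.1, and 1 without MG63 or without replicate 1 of every line (range 0 to 1 over the leave-outs). With fixed line means, where the spread comes from libraries, 14828 genes were called, and 14819 with the replicate block. The cause of these differences was not tested.

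In the fit that kept libraries apart, the 1757 calls became 4251 with no minimum fold change, 1743 with the replicate block, 1702 with DESeq2, 1671 to 1768 when a replicate was left out and 1938 to 2599 when a line was left out, where 1 fewer contrast has to pass. Of the 1757, 1375 (78.3%) were called in each of the 6 fits that left out a replicate. SAOS2 libraries showed little sign of pairing by replicate number. Their deviations from the line mean correlated with those of same-numbered libraries of other lines at a median of 0.005 (-0.067 to 0.103). With differently numbered ones the median was 0.003 (-0.093 to 0.059). Pairs without a SAOS2 library were not examined. The 4751 genes highest or lowest in all 3 libraries were 680 (509 and 171) with a 2-fold margin, and 5032 to 6511 when a SAOS2 library or a line was left out.

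Of 2117 refitted fold changes of the 106 named genes, 1817 kept their direction and side of the threshold, 296 newly passed it and 4 reversed, all of COL1A2: 2.44 and 3.15 with limma and 3.11 and 3.10 with fixed line means, without and with the replicate block. RUNX2 in SAOS2 was 64.5 TPM with coding transcripts only. MG63 had the shallowest library.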

Other observations

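Muscle-associated genes other than ACTA2 and SLN were also measured in SAOS2. MYOD1, the myogenic master regulator, had 0.486, 1.14 and 0.853 TPM against at most 0.133 TPM in the other libraries, and CKM, muscle creatine kinase, had 2.72, 2.01 and 2.47 TPM against at most 0.221 TPM. Both were higher, and the levels are low. TNNT1, slow skeletal troponin T, went the other way, with 0.463, 0.155 and 0.235 TPM against 1.32 to 271 TPM (median 12.4). Of 6 muscle markers tested, 2 were higher and 1 was lower, beside 4.61% and 3.4% of all genes.

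TUBB3, a neuronal tubulin also found in many tumour lines, was the 1 lower gene of 8 neural markers tested (3.4% of all genes were lower), with 70.1, 71.1 and 71.8 TPM against 196 to 707 TPM, median 262 (log2 fold change -1.72, SE 0.14, against U2OS, adjusted p = 8.5e-10). VWF, von Willebrand factor, was higher at 1.52, 1.07 and 1.06 TPM against at most 0.581 TPM, and ESAM, an endothelial adhesion gene, was lower at 0.159, 0.20 and 0.168 TPM against at least 0.385 TPM. EPCAM, an epithelial adhesion gene chosen after its values were seen, had 34.9, 24.2 and 23.4 TPM and was above all other libraries (at most 13.5 TPM), though under the 2-fold minimum of the count fit against KHOS. It was the 1 of 12 epithelial markers tested that was highest in all 3 SAOS2 libraries, beside 15.3% of all genes. In that list 0 genes were higher and 0 lower, beside 4.61% and 3.4% of all genes. The list median was -2.28, beside -0.28 for all genes.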
